A study of Mus musculus with 15 samples.

Results

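Of the chromatin regions that were open in mouse hepatocytes, 2909 were low both in hepatocytes reprogrammed during liver injury and in biliary cells. They were taken from an ATAC-seq data set of mouse liver, an assay in which a transposase cuts accessible DNA so that the reads in a region measure how open it is. The regions were chosen by mean nuclear RPM, which is reads per 1000000 after the mitochondrial regions were removed and each library rescaled. A member had a mean of 10 or more in hepatocytes of mice given DDC. Its means in reprogrammed hepatocytes and in biliary cells of DDC mice were both at most 25% of that hepatocyte mean. The 2909 members made up 3.12% of 93215 nuclear regions and 12.6% of the 23161 regions with a DDC hepatocyte mean of 10 or more.

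The 15 libraries formed 5 groups of 3: reprogrammed hepatocytes, biliary cells and hepatocytes from mice given DDC, and biliary cells and hepatocytes from untreated mice. DDC (diethoxycarbonyl-dihydrocollidine) is fed in the diet to damage bile ducts, and cells were sorted straight from liver. Strain, age, alleles, DDC dose and feeding time, sort markers and the means of recognising reprogrammed cells were not stated in the labels. Nor do the labels say whether the libraries of a group come from separate mice, so each p reflects the spread among these libraries alone, which may be technical.

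Hepatocytes and biliary cells arise from a common progenitor, and hepatocytes can take on biliary features when bile ducts are injured. Hepatocyte genes are controlled by factors such as HNF4A, HNF1, the C/EBP family and FOXA proteins, which bind promoters and distant enhancers together. Albumin (Alb), the ethanol-oxidising cytochrome P450 Cyp2e1 and Pck1, an enzyme of glucose production, are classic genes of the mature hepatocyte.

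The promoters below are shown because few members held a gene start, and those starts carried letters bound by hepatocyte factors more often than other open starts did. Sequences are from RefSeq (GRCm38.p6) and run over the 250 bases before the start, 5′ to 3′ in the direction of the gene. Capitals mark matches on either strand to the letters HNF4A CAAAGTCCA, HNF1 GTTAATNAT, CEBP TTGCNNAA and FOXA TGTTTAC. Alb, Igfbp1 and F13b hold an HNF1 match, Cyp3a11 and Treh an HNF4A match, and the Pck1 window holds none. The window of the marker gene Cyp2e1, not printed, also holds 0 matches. Windows other than those of marker genes were picked for a match, so the printed ones overstate how often member windows hold one.
Alb (chr5:90460620-90460869, plus strand): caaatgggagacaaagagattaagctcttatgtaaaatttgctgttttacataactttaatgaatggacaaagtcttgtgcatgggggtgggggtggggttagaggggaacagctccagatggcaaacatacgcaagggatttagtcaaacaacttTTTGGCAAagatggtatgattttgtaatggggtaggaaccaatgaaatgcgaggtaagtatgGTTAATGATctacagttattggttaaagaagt
Igfbp1 (chr11:7197537-7197786, plus strand): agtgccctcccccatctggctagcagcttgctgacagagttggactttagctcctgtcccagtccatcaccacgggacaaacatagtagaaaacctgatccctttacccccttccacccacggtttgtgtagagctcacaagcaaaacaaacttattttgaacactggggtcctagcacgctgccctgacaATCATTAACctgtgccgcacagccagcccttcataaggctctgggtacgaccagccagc
F13b (chr1:139501457-139501706, plus strand): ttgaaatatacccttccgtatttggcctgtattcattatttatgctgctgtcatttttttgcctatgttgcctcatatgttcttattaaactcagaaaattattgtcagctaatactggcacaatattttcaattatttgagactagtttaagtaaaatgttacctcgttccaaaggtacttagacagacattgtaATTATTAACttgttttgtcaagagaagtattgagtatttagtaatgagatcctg
Cyp3a11 (chr5:145879855-145880104, minus strand): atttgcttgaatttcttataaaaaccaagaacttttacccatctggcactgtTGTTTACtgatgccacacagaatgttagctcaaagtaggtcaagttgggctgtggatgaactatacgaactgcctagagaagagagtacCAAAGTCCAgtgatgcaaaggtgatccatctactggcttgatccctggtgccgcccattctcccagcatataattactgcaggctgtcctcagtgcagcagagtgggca
Treh (chr9:44672983-44673232, plus strand): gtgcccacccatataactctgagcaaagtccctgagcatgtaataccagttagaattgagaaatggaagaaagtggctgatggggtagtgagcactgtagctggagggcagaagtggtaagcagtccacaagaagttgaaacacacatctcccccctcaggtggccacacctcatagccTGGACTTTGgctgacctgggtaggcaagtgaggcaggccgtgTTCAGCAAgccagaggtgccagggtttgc
Pck1 (chr2:173152823-173153072, plus strand): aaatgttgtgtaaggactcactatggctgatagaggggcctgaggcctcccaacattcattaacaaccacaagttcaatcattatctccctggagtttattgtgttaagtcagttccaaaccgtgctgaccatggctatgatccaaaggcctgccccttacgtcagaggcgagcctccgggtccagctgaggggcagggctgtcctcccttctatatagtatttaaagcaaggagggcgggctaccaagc

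The start region of Treh, which splits the sugar trehalose, averaged 2.87 ± 1.89 nuclear RPM in reprogrammed cells, 2.30 ± 1.77 in DDC biliary cells and 18.2 ± 10.2 in DDC hepatocytes (SD, n = 3 each). That of Cyp3a11, a drug-oxidising P450, averaged 5.35 ± 1.45, 3.75 ± 1.23 and 28.1 ± 13.4 in the same groups, and that of F13b, a subunit of clotting factor XIII, 2.74 ± 1.82, 1.33 ± 0.871 and 16.0 ± 6.64. Of 83 start windows inside members, 3.61% held the HNF4A letters, against 0.323% of 10225 windows inside other regions with a DDC hepatocyte mean of 10 or more and 0.390% of all 21262 windows. HNF1 letters were in 7.23% of the member windows, 0.411% of the other open windows and 0.687% of all windows. CEBP letters were in 21.7%, 6.82% and 9.09% of windows in the same order, and FOXA letters in 7.23%, 2.08% and 2.62%. The letters CAAGGTCA of NR5A2, another hepatic factor, were in 6.02%, 0.802% and 1.14%. Letters of factors active in other epithelia were also more frequent in member windows. AP-1 (TGANTCA) was in 9.64% of member windows, 3.89% of the other open windows and 6.13% of all windows. TEAD (GGAATG) was in 15.7%, 9.94% and 11.7%, and GRHL (AACCNGTT) in 3.61%, 1.496% and 1.70%. Base composition differed beside these shares, with a median GC content of 48.8% in member windows, 61.6% in the other open windows and 55.6% in all windows, and its part in the shares was not tested. The HNF4A count rests on 3 windows and the HNF1 count on 6, a match is not a bound site, and no window on chromosome 18, where 102 members lie, was in the table used.

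Nuclear reads per library ran from 4756891 to 9829886 in reprogrammed cells, 5151190 to 10395918 in DDC biliary cells, 1191409 to 2342643 in DDC hepatocytes, 2439831 to 4389653 in untreated biliary cells and 201705 to 605309 in untreated hepatocytes. Mitochondrial reads took 4.69% to 14.8%, 7.99% to 12.9%, 29.1% to 42.4%, 13.7% to 21.9% and 63.1% to 84.2% of all reads in those groups. Regions of the biliary marker genes Krt19, Epcam, Sox9, Spp1 and Krt7 summed to 429 to 511 nuclear RPM in reprogrammed cells, 689 to 774 in DDC biliary cells, 129 to 215 in DDC hepatocytes, 682 to 804 in untreated biliary cells and 149 to 258 in untreated hepatocytes. Reprogrammed libraries thus lay between DDC hepatocytes and DDC biliary cells at these genes, with no overlap. Regions of Alb, Cyp2e1 and Pck1, of which 6 of 13 are members, summed to 140 to 307 nuclear RPM in reprogrammed cells, 89.2 to 230 in DDC biliary cells, 1268 to 1993 in DDC hepatocytes, 108 to 361 in untreated biliary cells and 1256 to 2305 in untreated hepatocytes. Markers of some other cells moved with the members. Lymphocyte markers (3 of 4 with a region) summed to 8.04 to 16.4 nuclear RPM in reprogrammed cells, 8.54 to 14.8 in DDC biliary cells, 14.9 to 36.9 in DDC hepatocytes, 7.06 to 17.0 in untreated biliary cells and 44.6 to 69.4 in untreated hepatocytes. Endothelial markers (4 of 4) summed to 98.7 to 144, 87.0 to 101, 142 to 173, 56.7 to 84.6 and 74.4 to 145 in the same order. DDC hepatocytes were thus above DDC biliary cells without overlap for both lists, and untreated hepatocytes above untreated biliary cells without overlap for lymphocyte markers. Neuronal markers (4 of 4), which hold 1 member, were higher in untreated hepatocytes, at 332 to 431, than in untreated biliary cells, at 264 to 288. In DDC mice they went the other way without overlap, at 214 to 298 in hepatocytes and 321 to 344 in biliary cells. Macrophage markers (2 of 4) summed to 92.7 to 103 in untreated biliary cells and 51.2 to 59.6 in untreated hepatocytes, and stellate markers (4 of 4) to 122 to 155 and 68.1 to 127. In DDC mice macrophage markers summed to 96.9 to 117 in biliary cells and 85.7 to 148 in hepatocytes. Stellate markers summed to 98.6 to 131 and 94.3 to 117 there. The part of these cells in the results was not tested.

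The word closed is relative: most members kept some reads in reprogrammed cells. The median over members of the group mean was 2.81 nuclear RPM in reprogrammed cells, 1.81 in DDC biliary cells, 17.3 in DDC hepatocytes, 2.59 in untreated biliary cells and 19.1 in untreated hepatocytes. The median member stood at 16.3% of its DDC hepatocyte mean in reprogrammed cells and at 9.76% in DDC biliary cells. In reprogrammed cells 800 members lay between 20% and 25% of the hepatocyte mean, close to the limit of the rule, and 15 lay under 5%. These values chose the members and are a description. In such bulk libraries, fewer cells with open regions and less open chromatin in each cell cannot be told apart.

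The members' share of nuclear reads was 1.05%, 0.763% and 1.82% in reprogrammed libraries 1 to 3, 0.562%, 1.10% and 0.681% in DDC biliary libraries, and 6.72%, 8.02% and 7.52% in DDC hepatocyte libraries. It was 1.999%, 0.699% and 0.649% in untreated biliary libraries and 7.83%, 8.88% and 7.64% in untreated hepatocyte libraries. One library of each group with low members stood above its fellows: reprogrammed 3, DDC biliary 2 and untreated biliary 1. Reprogrammed 3 was the highest of its group at 82.2% of members (41.4% of all regions with a read in that group), DDC biliary 2 at 72.0% (38.6%) and untreated biliary 1 at 86.2% (43.8%). The sums over the Alb, Cyp2e1 and Pck1 regions were highest in the same libraries, 307, 230 and 361 nuclear RPM. These sums are not independent of the members, since 6 of the 13 regions summed are members. In reprogrammed 3 the largest Alb and Pck1 members alone had 104 and 145 nuclear RPM. Why these libraries stood above their fellows was not tested.

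**Figure D1:**
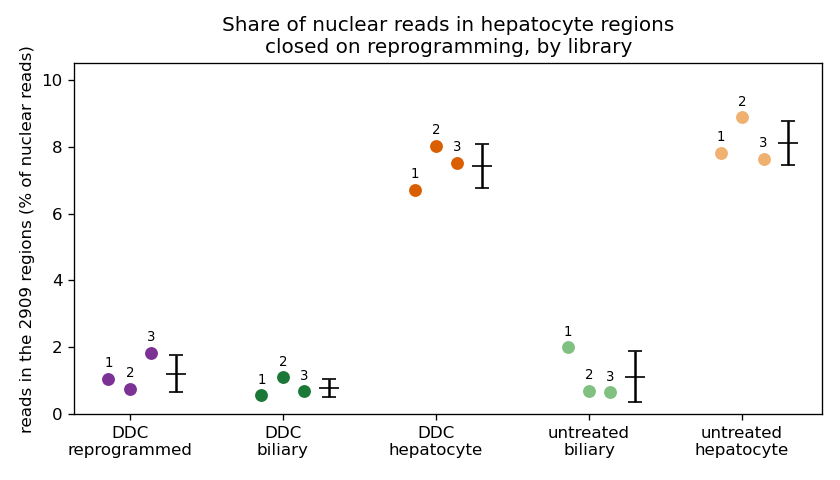
Percent of nuclear reads that lie in the 2909 regions, for each of 15 libraries (points, numbered by library) with the mean and SD of each group of 3 (bars). Reprogrammed and biliary libraries lie between 0.562% and 1.999%, and the 6 hepatocyte libraries between 6.72% and 8.88%.

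Regions over the genes of secreted plasma proteins were among the highest members. The region over the start and body of Alb (chr5:90460319-90480882) had 65.9, 48.8 and 104 nuclear RPM in reprogrammed libraries, 36.3, 96.1 and 47.2 in DDC biliary libraries and 536, 866 and 490 in DDC hepatocyte libraries. In untreated mice it had 133, 48.0 and 63.6 nuclear RPM in biliary libraries and 724, 786 and 426 in hepatocyte libraries. All 6 hepatocyte libraries lay above all 9 others. The region of Apob, the protein that carries very-low-density lipoprotein, had 107, 83.3 and 214 nuclear RPM in reprogrammed libraries, 44.3, 80.4 and 59.0 in DDC biliary libraries and 453, 517 and 793 in DDC hepatocyte libraries. Reprogrammed 1 to 3 were all above every DDC biliary library there. The region of Fgb, the fibrinogen beta chain, had 19.3, 13.7 and 47.5 nuclear RPM in reprogrammed libraries, 9.62, 15.5 and 14.95 in DDC biliary libraries and 180, 161 and 227 in DDC hepatocyte libraries. Ahsg, the plasma glycoprotein fetuin-A, averaged 158 ± 62.8 nuclear RPM in reprogrammed cells, 64.8 ± 32.3 in DDC biliary cells and 788 ± 178 in DDC hepatocytes (SD, n = 3 each).

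Enzymes of glucose, amino acid and nitrogen metabolism were a further group. The region over Pck1 (chr2:173152216-173165000) had 75.4, 63.4 and 145 nuclear RPM in reprogrammed libraries, 33.4, 86.2 and 43.6 in DDC biliary libraries and 524, 918 and 643 in DDC hepatocyte libraries. It had 143, 24.2 and 33.9 nuclear RPM in untreated biliary libraries and 1145, 1125 and 481 in untreated hepatocyte libraries. The lowest hepatocyte library, at 481, was above the highest of the others, at 145. Arg1, the last enzyme of the urea cycle, had 13.7, 9.26 and 61.8 nuclear RPM in reprogrammed libraries, 8.95, 31.6 and 27.4 in DDC biliary libraries and 104, 245 and 337 in DDC hepatocyte libraries, with reprogrammed 3 standing apart. The region with the highest level of all members lay over Slc25a47, a mitochondrial carrier gene of liver (chr12:108849361-108863238). It averaged 120 ± 46.4 nuclear RPM in reprogrammed cells, 82.7 ± 33.0 in DDC biliary cells and 1164 ± 24.8 in DDC hepatocytes (SD, n = 3 each).

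Cyp2e1 had a pair of members. The region over most of its body (chr7:140766068-140775527) had 5.15, 2.44 and 10.3 nuclear RPM in reprogrammed libraries, 2.50, 12.2 and 4.398 in DDC biliary libraries and 53.4, 48.4 and 54.6 in DDC hepatocyte libraries. Untreated libraries had 34.4, 6.56 and 6.61 nuclear RPM in biliary cells and 159, 251 and 230 in hepatocytes. All 3 DDC hepatocyte libraries were below all 3 untreated hepatocyte libraries there. Over all members the levels in DDC and untreated hepatocytes were alike at the median, with a log2 difference of 0.00, with quartiles of -0.51 and 0.61, on log2 of group means plus 1. The other Cyp2e1 member, at the gene start, was not lower under DDC. It had 20.9, 23.5 and 9.23 nuclear RPM in DDC hepatocyte libraries and 9.92, 13.2 and 8.52 in untreated hepatocyte libraries, with overlap. Slc25a47 went the other way from the Cyp2e1 body region. It had 1143, 1191 and 1157 nuclear RPM in DDC hepatocyte libraries and 744, 762 and 468 in untreated hepatocyte libraries. Igfbp1, which binds insulin-like growth factors and whose promoter is printed above, had 165, 212 and 182 nuclear RPM in DDC hepatocyte libraries and 382, 586 and 307 in untreated hepatocyte libraries. The DDC hepatocyte mean was part of the rule, so these are values side by side with no test.

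**Figure D2:**
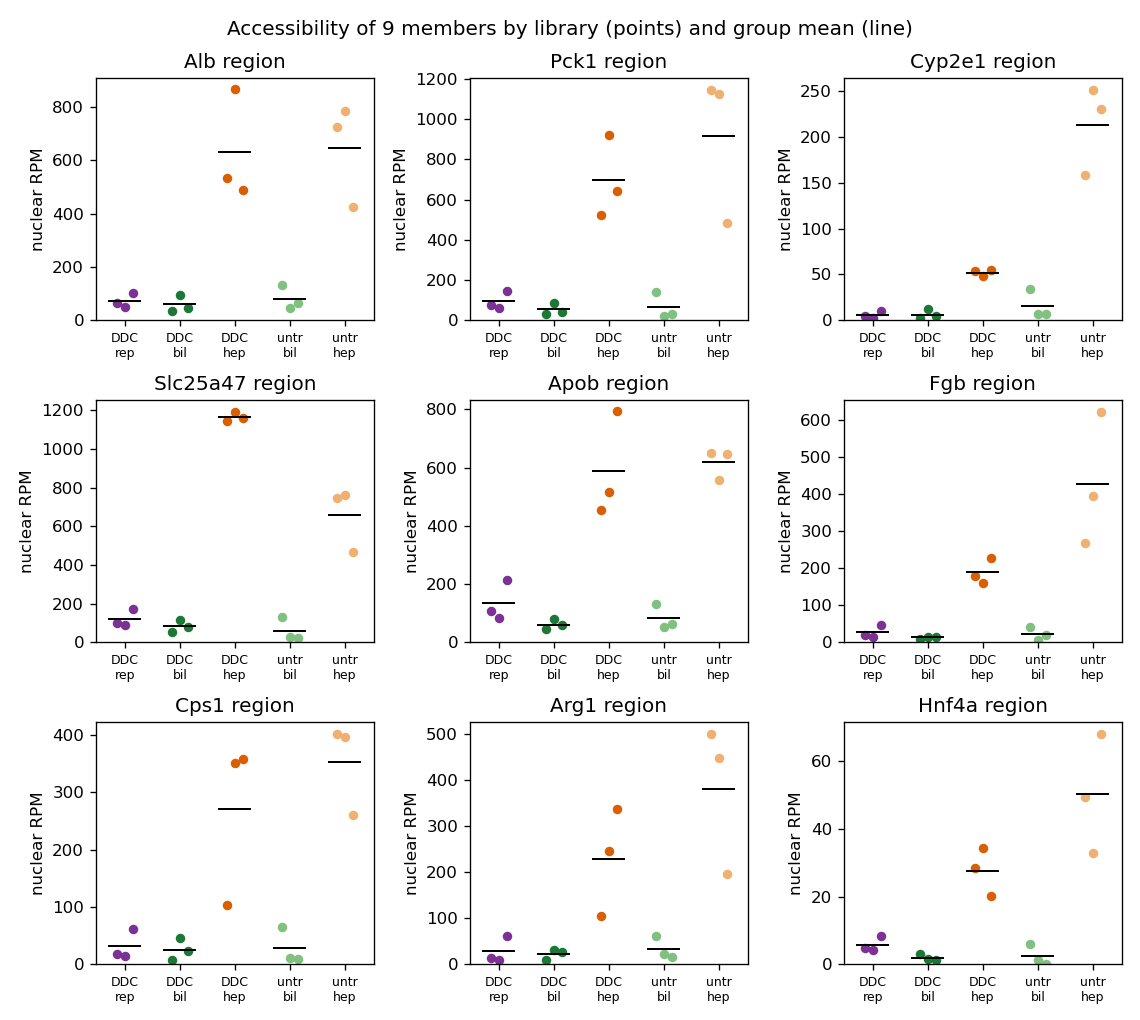
Nuclear RPM (vertical axes, each from 0) of 9 members in every library (points) with group means of 3 libraries (lines); rep, bil, hep and untr stand for reprogrammed, biliary, hepatocyte and untreated. In each panel the DDC reprogrammed, DDC biliary and untreated biliary means lie below both hepatocyte means. The Cyp2e1 panel shows the body region, where the DDC hepatocyte points also lie below the untreated hepatocyte points.

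Untreated cells, which the rule did not use, showed whether the members were also low in biliary cells without injury. Of the 2909 members, 1933 (66.4%) were lower in untreated biliary cells than in untreated hepatocytes by limma with a Benjamini-Hochberg adjusted p under 0.05. Over all 79075 regions tested, 10.9% were called lower and 22.1% higher. Over the 23161 regions with a DDC hepatocyte mean of 10 or more, 22.3% were called lower and 19.0% higher. The median change of the members was -2.38 on the log2(nuclear RPM + 1) scale, and that of all regions tested was 0.39. All members passed the filter on low values through their DDC hepatocyte level alone. Every untreated biliary library lay below every untreated hepatocyte library at 1862 members (64.0%). The same held at 9.77% of all 93215 regions and at 23.8% of the 23161 regions with a DDC hepatocyte mean of 10 or more. On the values as deposited, where mitochondrial reads stay in the total, the calls were 862 lower and 47 higher. The median there was -0.74 for members and 1.19 for all regions. Of 70538 regions tested on that scale, 2.82% were lower and 38992 regions were higher. With the nuclear reads thinned to the 201705 of the shallowest library, 829 members (28.5%) were called lower, and 3.11% of all regions tested. The fit took its spread from all 15 libraries, the DDC ones included. With the untreated groups fitted alone, 1314 of 2876 members tested (45.7%) were called lower, and 5.74% of all regions tested. Without untreated biliary 1, the biliary library with the highest members' share and hepatocyte marker sum, 1938 were lower and 2 higher. The median in that fit was -2.76, and 10.2% of all regions tested were lower.

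**Figure D3:**
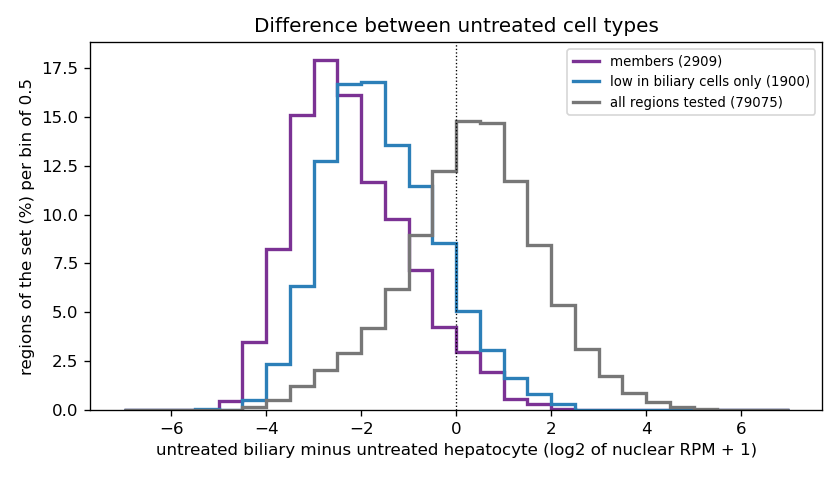
Distribution of the change between untreated biliary cells and untreated hepatocytes (horizontal axis, log2 of nuclear RPM plus 1) as percent of each set per bin of 0.5: members, the 1900 hepatocyte regions that were low in DDC biliary cells but above 25% in reprogrammed cells, and all regions tested. The medians are -2.38, -1.69 and 0.39, and the curve of the members lies furthest to the left.

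Plasma protein and enzyme genes were lower in untreated biliary cells, by an amount that depends on the scaling. Alb fell by 3.06 ± 0.39 on the log2 scale in untreated biliary cells (SE, limma adjusted p = 6.4e-05, n = 3 per group), Pck1 by 4.09 ± 0.53 (adjusted p = 6.9e-05) and the Cyp2e1 body region fell by 4.05 ± 0.59 (adjusted p = 0.00015). Fgb fell by 4.47 ± 0.54, Igfbp1 fell by 4.36 ± 0.49 and Hpx, which encodes the plasma heme carrier hemopexin, by 3.93 ± 0.56. On the values as deposited the same 6 regions were at -1.15 for Alb, -2.18 for Pck1, -2.14 for Cyp2e1, -2.55 for Fgb, -2.45 for Igfbp1 and -2.02 for Hpx, all still called, and edgeR gave -2.29 for Alb and -3.11 for Pck1. Over the 53 named members with a change below 0, the values as deposited were higher by 1.55 to 1.99 on the log2 scale. Ahsg, a member with high values in the untreated biliary libraries (171, 90.2 and 114 nuclear RPM, against 397, 841 and 332 in untreated hepatocytes), fell by 1.98 ± 0.38 (adjusted p = 0.00096) but was at -0.087 with an adjusted p of 0.877 on the values as deposited. The members with the lowest p were less well-known places. The first lay over 50 kb from any gene (chr3:102383598-102384856) and had 3.02, 1.64 and 0.456 nuclear RPM in untreated biliary libraries and 44.6, 38.0 and 42.6 in untreated hepatocyte libraries, a fall by 4.10 ± 0.41 (adjusted p = 1e-05). A region near Slc25a25, a mitochondrial carrier, fell by 4.04 ± 0.42, and one near Wrnip1, a gene of DNA repair, by 4.78 ± 0.53.

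The share of members called lower went up with their level in DDC hepatocytes. It was 50.4% at a mean of 10 to 15 nuclear RPM (1172 members), 65.5% at 15 to 20, 79.7% at 20 to 40, 93.4% at 40 to 100, and 97.9% (47 of 48) at 100 or more. Reads in the 3 untreated hepatocyte libraries together had a median of 13 at members of 10 to 15 and 289.5 at those of 100 or more. The other 18352 regions open in DDC hepatocytes were all above 25% of their DDC hepatocyte mean in DDC biliary cells. They did not show that rise, with 10.8% in the lowest and 10.1% in the highest class. Regions low in DDC biliary cells had been left out of them, so their low share is not independent of that choice. The nearest comparison set, 1900 regions that were low in DDC biliary cells but above 25% in reprogrammed cells, was called lower at 57.5%, with a median of -1.69. It showed the rise too, from 42.4% at 10 to 15 nuclear RPM to 93.3% (14 of 15) at 100 or more. Both ratios of that set were fixed by the same DDC libraries, and its difference from the members was not tested.

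**Figure D4:**
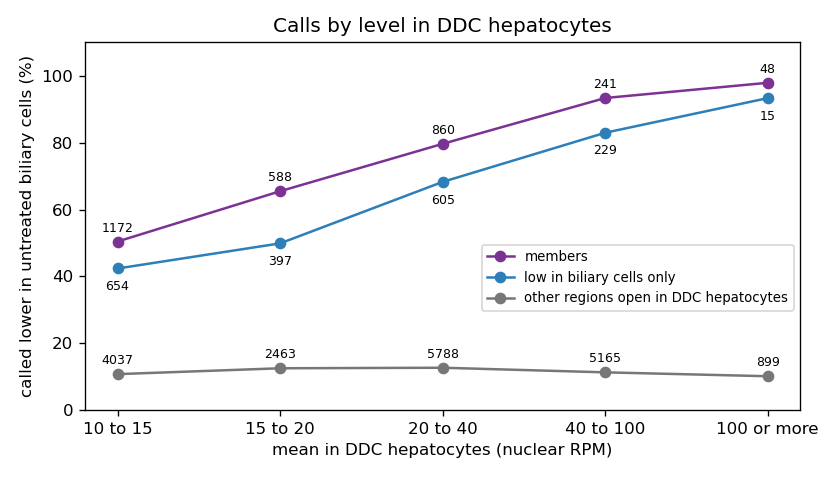
Percent of regions called lower in untreated biliary cells than in untreated hepatocytes (vertical axis), by mean nuclear RPM in DDC hepatocytes (horizontal axis), with the number of regions at each point. Members run between 50.4% and 97.9%, the 1900 regions low in DDC biliary cells only between 42.4% and 93.3%, and other regions open in DDC hepatocytes stay between 10.1% and 12.7%.

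The 970 members not called had lower levels, with a median of 8.35 nuclear RPM and 10 reads in untreated hepatocytes, against 25.7 nuclear RPM and 27 reads for those called lower. Among 29 members without a read in any untreated hepatocyte library, 25 were not called and 4 were called higher. With 0 of 1041881 reads, the 3 libraries together allow a level of up to 2.88 nuclear RPM, a limit that covers counting error only, and 28 of the 29 had an untreated biliary mean under it. The 6 members called higher lay at Tcf7l1, Akap11, Scd1, Zfand2a, Ubac2 and Tafa2, the last pair named after its values were seen. Only Tcf7l1, a factor of Wnt signalling, held more than 2 untreated hepatocyte reads among them. It had 12.5, 8.61 and 14.4 nuclear RPM in untreated biliary libraries and 0, 11.6 and 0 in untreated hepatocyte libraries (log2 change 2.43 ± 0.75, limma adjusted p = 0.0203), so 1 hepatocyte library overlapped the biliary range. The Apoa4 member, in a gene of an intestinal and hepatic apolipoprotein, had 1.72 ± 0.80 (adjusted p = 0.113), and an adjusted p of 0.00139 on the values as deposited.

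Members lay mostly away from gene starts. Only 96 (3.30%) were within 1 kb of a transcription start, against 35.8% of the 23161 regions open in DDC hepatocytes and 12.1% of all regions. Inside genes lay 51.4% of members, 28.9% of the regions open in DDC hepatocytes and 43.3% of all. A further 14.7% of members were over 50 kb from any protein-coding gene, against 7.58% and 13.7%. Seen from the regions, 78 of 8067 that held a start window were members (0.967%), and 2831 of 15094 that held none (18.8%). The table of starts has none on chromosome 18, so its 102 members count in these numbers as away from a start. Without that chromosome, 96 of 2807 members (3.42%) were within 1 kb of a start, against 37.0% of open regions, and 2729 of 14333 regions without a start window (19.0%) were members. Members tied to a gene, by touching it or lying within 50 kb, covered 1930 genes. For 1130 of these genes a start window lay in a region open in DDC hepatocytes, and that start region was itself a member for 74 (6.55%). At the other genes the start region stayed above the limit in reprogrammed or biliary cells while a region elsewhere fell below it. In untreated biliary cells 77.1% of the members within 1 kb of a start were called lower. The share was 64.1% of those inside genes and 69.7% of those over 50 kb from a gene. It was 66.4% over all members, 22.3% over regions open in DDC hepatocytes and 10.9% over all regions tested. The median DDC hepatocyte means of the 3 classes were 28.0, 17.0 and 16.2 nuclear RPM, and calls rose with that level. The part of location was not tested.

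**Figure D5:**
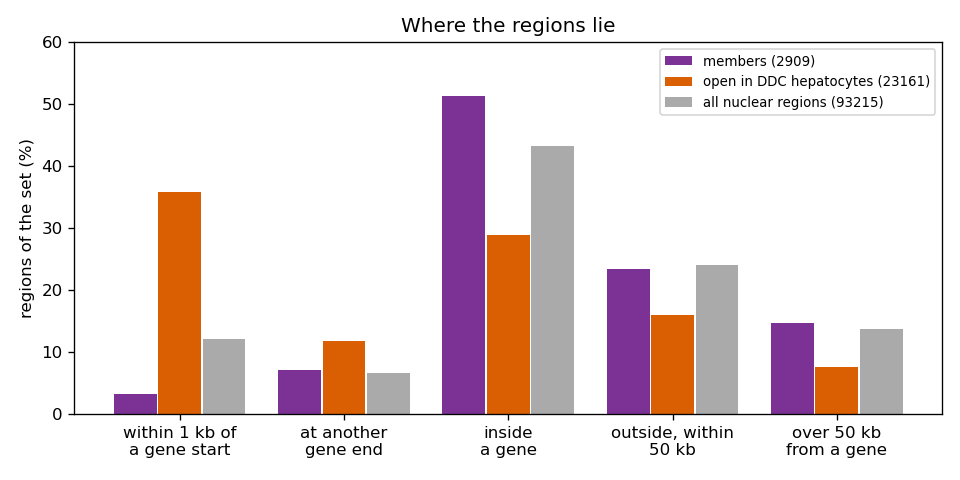
Percent of members, of regions open in DDC hepatocytes and of all nuclear regions (bars) in 5 location classes. Members are few within 1 kb of a gene start (3.30%, against 35.8% of open regions) and most often inside a gene (51.4%).

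Some members formed runs along a gene. Cps1, the first enzyme of the urea cycle, had 15 members among its 16 regions open in DDC hepatocytes, spread over 116715 bp (chr1:67116355-67233069), and all 15 were lower in untreated biliary cells. Summed over them, nuclear RPM averaged 112 in reprogrammed cells, 94.2 in DDC biliary cells, 920 in DDC hepatocytes, 135 in untreated biliary cells and 1465 in untreated hepatocytes. The largest of these (chr1:67143133-67162047) had 17.5, 14.2 and 62.0 nuclear RPM in reprogrammed libraries, 7.31, 45.4 and 23.4 in DDC biliary libraries and 104, 351 and 358 in DDC hepatocyte libraries. Reprogrammed 3 and DDC biliary 2 were again the highest of their groups. The apolipoprotein cluster of Apoa1, Apoc3, Apoa4 and Apoa5 with Zpr1 held 9 members over 54713 bp, 5 of them lower in untreated biliary cells. Slc7a2, a carrier of arginine and other basic amino acids, had 5 members and Ass1, the urea cycle enzyme that makes argininosuccinate, also 5, all 10 lower in untreated biliary cells. In all, 537 members (18.5%) lay within 12.5 kb of another, in 231 runs.

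Gene lists showed which functions the members belonged to. These are shares of the regions open in DDC hepatocytes that were members, to be read against 11.6% (2480 of 21406) over all regions tied to a gene. Counts lower in untreated biliary cells are to be read against the 1634 of 2480 members tied to a gene (65.9%). The shares of members describe the outcome of the rule, and the lists were drawn up with earlier results known. Cytochrome P450 and drug metabolism genes had 18 members among 30 open regions, at 12 of 20 genes, and 10 of the 18 (55.6%) were lower in untreated biliary cells (median -2.40). Adh1, an alcohol dehydrogenase, fell by 3.92 ± 0.67. Nr1i2, the xenobiotic receptor PXR, fell by 2.97 ± 0.52. Urea, amino acid and glucose genes had 47 members among 83 open regions (56.6%), at 16 of 20 genes, and 41 (87.2%) were lower (median -2.86). Tat, which starts the breakdown of tyrosine, fell by 3.76 ± 0.65 and Arg1 by 3.61 ± 0.66. Plasma protein genes had 15 members among 40 open regions (37.5%), and all 15 were lower (median -2.98), with Apoa1 at -3.13 ± 0.43 and Apob at -2.98 ± 0.34. Bile acid and lipid genes had 27 members among 73 open regions (37.0%), with 16 (59.3%) lower and 1 higher (median -2.33). The named member at Cyp7a1, the rate-setting enzyme of bile acid synthesis, fell by 3.02 ± 0.77, while Scd1, a fatty acid desaturase, is the member called higher with no untreated hepatocyte read. On the values as deposited, 862 of all 2909 members (29.6%) and 2.82% of all regions tested were lower. Against that, 3 of the 18 P450 and drug members and 18 of the 47 urea, amino acid and glucose members were lower. So were 8 of the 15 plasma protein members and 4 of the 27 bile acid and lipid members. The medians of the 4 lists were -0.66, -1.14, -1.11 and -0.69 in that order. Nr1i2 and Cyp7a1 were among the list members no longer called.

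Transcription factor genes of hepatocytes had 10 members among 101 open regions (9.90%), near the 11.6% over all tied regions, at 7 of 20 genes. Of the 10, 7 were lower in untreated biliary cells, near the 65.9% of all tied members. A region within 50 kb of Hnf4a but outside it (chr2:163580175-163580941) had 4.82, 4.37 and 8.41 nuclear RPM in reprogrammed libraries, 2.98, 1.55 and 1.17 in DDC biliary libraries and 28.6, 34.5 and 20.1 in DDC hepatocyte libraries. All reprogrammed libraries were above all DDC biliary libraries there, and in untreated biliary cells it fell by 4.30 ± 0.59 (limma adjusted p = 0.0001). Onecut1 and Klf15, both transcription factors of liver, fell by 2.84 ± 0.51 and 2.55 ± 0.40, and Nr1h4, the bile acid receptor FXR, on the lipid list, had -1.48 ± 0.58 (adjusted p = 0.062). On the values as deposited Nr1h4 was at 0.086, the Rora member at 0.25 and the named Rxra members at 0.050 and 0.22, none with an adjusted p under 0.05, and Onecut1 and Klf15 were not called there either (adjusted p of 0.0596 and 0.172).

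Biliary genes had 6 members among 31 open regions (19.4%, against 11.6% over all tied regions), at Pkhd1, Lamb3 and Prom1. Of the 6, 5 were lower in untreated biliary cells, against 65.9% of all tied members. On the values as deposited 1 of 6 was lower, against 29.6% of all members. A region inside Pkhd1, the gene of fibrocystin (chr1:20131777-20132566), had 6.80, 6.61 and 10.7 nuclear RPM in reprogrammed libraries, 3.46, 8.35 and 4.202 in DDC biliary libraries and 35.9, 38.3 and 47.0 in DDC hepatocyte libraries. In untreated biliary cells it fell by 3.09 ± 0.37. Of the lists for other cells, macrophage and lymphocyte genes had 0 members among 5 open regions, endothelial and stellate genes 0 among 8, and neuronal genes 1 among 10, a region inside Syt1.

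By group means, reprogrammed cells kept slightly more signal at the members than DDC biliary cells did, by an amount that depended on single libraries. The reprogrammed mean was the higher at 2548 members (87.6%), against 52.1% of all regions, with a median log2 difference of 0.44 for members and 0.02 for all regions. Without reprogrammed 3 the numbers were 1830 members (62.9%), 48.6% of all regions, and a median of 0.13. Without DDC biliary 2 they were 2752 members (94.6%), and without both 2306 (79.3%), against 51.3% of all regions. Every reprogrammed library lay above every DDC biliary library at 447 members (15.4%, background 10.6%), and the reverse held at 10 (background 12.8%). Over the 23161 regions open in DDC hepatocytes the reprogrammed mean was the higher at 72.3%, and every reprogrammed library lay above every DDC biliary library at 17.3%. Without reprogrammed 3, the shares with every reprogrammed library above were 16.2% of members and 15.9% of all regions. Without DDC biliary 2 they were 41.4% and 17.8%, and without both 42.9% and 24.6%. Both means were part of the rule, so no test was made. Among members with a DDC hepatocyte mean of 20 or more, Bbox1 and Foxo3 had high ratios of the reprogrammed to the DDC biliary mean. The start region of Bbox1, an enzyme of carnitine synthesis, had 3.29, 4.27 and 15.3 nuclear RPM in reprogrammed libraries, the third far above the others, against 1.06, 0.777 and 2.54 in DDC biliary libraries and 32.4, 53.2 and 52.0 in DDC hepatocyte libraries. The Foxo3 region, in the gene of a transcription factor of the insulin response, had 3.84, 3.46 and 4.84 nuclear RPM in reprogrammed libraries and 0.577, 0.388 and 0.782 in DDC biliary libraries, with no overlap. At the other end, Cyp2d9 had 6.47, 1.73 and 3.99 nuclear RPM in reprogrammed libraries and 2.21, 13.6 and 3.32 in DDC biliary libraries, where DDC biliary 2 stood above all others. Cyp7a1 had 2.52, 1.83 and 3.99 nuclear RPM in reprogrammed libraries and 1.35, 8.74 and 2.44 in DDC biliary libraries, and DDC biliary 2 was again the high one.

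The edges of the rule were close to regions left out. Members next to the ratio limit on the inside lay at Efna1 and Antxr2, and the nearest outside at Rpf2, Ranbp10 and Ackr2. Efna1 had 11.6, 13.2 and 18.5 nuclear RPM in reprogrammed libraries and 42.7, 72.8 and 57.9 in DDC hepatocyte libraries, while Rpf2, just outside, had 2.19, 2.34 and 3.15 in reprogrammed, 2.02, 4.27 and 2.64 in DDC biliary and 10.7, 9.10 and 15.9 in DDC hepatocyte libraries. At the level limit, the Osbp member had 17.1, 12.9 and 0 nuclear RPM in DDC hepatocyte libraries and the Krr1 region outside it 8.54, 7.18 and 14.3. The rule was next applied with 1 replicate number left out of each DDC group, and the ratios were read in the libraries left out. Without number 1, 3053 regions were chosen and 75.1% of them met both ratios in the left-out libraries, and without number 2, 2249 were chosen and 82.3% did. Without number 3, 3617 were chosen and 33.2% met both, since 33.9% met the reprogrammed ratio in reprogrammed 3 and 87.3% the biliary ratio in DDC biliary 3. In that case both left-out values were still below the DDC hepatocyte value at 95.2%.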

How the data were processed

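ATAC-seq reads of 15 libraries were analysed from the table the authors deposited. The submitters' processing notes name build mm10 and the tools bedtools, MACS2, SAMtools and Bowtie2, without versions; duplicate handling and region merging were not stated. The deposited values, named TPM by the authors, are RPM, scaled so that the 93217 regions of a library sum to 1000000, without division by length. Whole reads were recovered in every library for 100% of values under 100 reads (tolerance 0.02 reads). The test had been planned for TPM and was kept, since it takes log2 of a library-scaled value either way. Mitochondrial shares differ strongly between groups and lower every other deposited value, so 2 mitochondrial regions were removed and columns rescaled to 1000000 (nuclear RPM).

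The members, the gene lists and the tests were chosen with earlier results of these data known. The test was limma-trend on log2(nuclear RPM + 1), all 15 libraries in 1 fit, regions of mean 1 or more, Benjamini-Hochberg over 79075 regions, adjusted p under 0.05. It was tested on simulated data. edgeR quasi-likelihood on recovered reads, other scalings (TMM, size factors as DESeq2 computes them, values as deposited), pseudocounts, filters, thinning, blocks and left-out libraries were alternatives. No library was a copy of another of its group (chi-square over degrees of freedom of 2.18 or more).

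Regions were tied to the protein-coding gene they touch, or the nearest within 50 kb, and starts were taken from RefSeq (GRCm38.p6, the assembly of mm10). Genes were named by rule: members of Alb, Cyp2e1 and Pck1, the 12 genes with most members, the 10 highest, the 10 of lowest p, the 5 with the largest opposite change, those next to the limits, those of extreme reprogrammed to biliary ratio, and up to 4 examples of each list. Some genes that the rule names are not reported here. Promoters were printed for Alb and Pck1 as marker genes and for the others because they held an HNF4A or HNF1 match. The window of the marker gene Cyp2e1, which held no match, and some windows with a match were not printed. Tools were limma 3.58.1, edgeR 4.0.16 and R 4.3.3, and matplotlib 3.10.9, pandas 2.3.3, numpy 2.4.6, Python 3.11.15.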

Additional observations from a re-analysis of the deposited data

How the results depend on the processing

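The median change of the members in untreated biliary cells was below 0 in every fit run, against 1933 called lower and 6 higher as reported. On the values as deposited 862 were lower and 47 higher, and after thinning 829 and 0. Fitting the untreated groups alone gave 1314 and 2, by TMM 1637 and 14, with a pseudocount of 4 1994 and 1, with a mean of 5 or more 1905 and 3, by edgeR 1913 and 0, and by edgeR without reprogrammed 1 (added after seeing the data) 1822 and 1. Of all regions tested, 2.82% were lower as deposited, 3.11% after thinning, 5.74% with the untreated groups alone and 6.33% by TMM. The share was 11.9% with a pseudocount of 4, 19.0% with a mean of 5 or more and 7.62% by edgeR. By edgeR without reprogrammed 1 it was 6.79%. Leaving out 1 untreated library gave 1709 to 2220 lower and 2 to 52 higher. There were 52 higher without untreated hepatocyte 2, 14 without untreated hepatocyte 3 and 2 without untreated biliary 1. In those fits 8.26% to 14.6% of all regions tested were lower. With the replicate number as a block over all libraries 1968 were lower and 6 higher, and 11.4% of all regions tested were lower. With that block and only the compared groups, a fit added after seeing the data, 20 were lower and 0 higher, of 29 lower in all. Deviations of same-numbered untreated libraries had correlations of -0.020, -0.025 and 0.023. The labels do not say whether equal numbers mark pairs, and why so few were called was not tested.

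Stricter rules left fewer members: a lower ratio limit (16.7%) gave 995 lower and 2 higher among 1466, a level of 20 or more 957 and 1 among 1149, and members chosen on values as deposited 814 and 1 among 1022. The number of members was 1022 as deposited, 2569 by TMM and 2917 after thinning. It ran between 2249 and 3617 when libraries were left out, lowest without number 2 and highest without number 3. A window of 5 kb put 25.1% of members at a gene end in place of 9.76% with 1 kb, and a limit of 10 kb tied 72.5% to a gene in place of 85.3%. Of 58 named members 50 were lower, 10 of them in every fit. As deposited, 17 lost their call with the same direction (the smaller Alb region, the Cyp2e1 start, Ahsg, Zpr1 and Klf15 among them). Nr1h4, Rora and the named Rxra members turned to 0.086, 0.25, 0.050 and 0.22, of which the Rxra members had been called; the cause was not tested. The shallow untreated hepatocyte libraries limit what can be called at low members.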
